A study of Mus musculus with 4 samples.

Results

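The cells described here are ganglion neurons that lack the early neuronal factor Nhlh1, found among cells sorted from mouse cochleae. They were chosen by transcripts: a cell needed at least 1 UMI (unique molecular identifier, a counted RNA molecule) of Gata3, at least 1 of Isl1, at least 3 of Stmn2, and none of Epcam or Nhlh1. Gata3 and Isl1 are transcription factors of the inner ear's neurons, Stmn2 is a microtubule regulator of growing neurons, and Epcam is an epithelial adhesion protein. The rule found 79 cells among the 5950 that passed the filters on genes per cell and mitochondrial share: 4 and 12 in replicates 1 and 2 at embryonic day 12.5 (E12.5), and 44 and 19 at E14.5.

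Neurons of the cochlear ganglion leave the otic epithelium as neuroblasts that express Neurog1 and then Neurod1, and pass through a stage marked by the helix-loop-helix factors Nhlh1 and Nhlh2. They then extend processes, keep the neurotrophin receptors Ntrk2 and Ntrk3, accumulate neurofilaments and later diversify into subtypes that differ in calcium-binding proteins and in transcription factors such as Runx1.

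All libraries, at both ages, came from mouse embryos of the genotype Sox2-GFP/WT, in which GFP reports Sox2, and the labels name no treatment. Cochleae were separated from the vestibular parts and taken apart, and GFP-positive cells were sorted, so the neurons seen here are those that passed this gate. There were 2 libraries per age, made with the 10x Genomics 3' kit of chemistry v3 and labelled as cochlear duct and auditory cells. The labels do not name the embryos behind a library, so p-values measure only the spread between these libraries, which may be technical. The 2 ages also differed in the sex genes: a UMI of Xist was found in 3 of 4 and 12 of 12 of these neurons at E12.5 and in 0 of 44 and 0 of 19 at E14.5, where 43 and 19 of them had a UMI of a Y-linked gene. Age and sex therefore cannot be told apart.

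For tests, UMIs were summed over the cells of a class in each library, and levels are given as CPM, the gene's UMIs in that sum scaled to a total of 1000000. The sums of the Nhlh1-negative neurons held 79522, 248924, 1195546 and 737730 UMIs, in the order E12.5 replicates 1 and 2 and E14.5 replicates 1 and 2, which is the order of every list of 4 values below. A gene with 3 UMIs would read 37.7, 12.1, 2.51 and 4.07 CPM in them. The first sum is thin, since 1 of its 4 cells gave 63.4% of its UMIs.

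The choice of cells sat well inside its limits for Stmn2. The median Stmn2 count was 39, 46, 52 and 85 UMIs, and 0, 1, 1 and 1 cells had only 3 to 5. Of these, the E12.5 replicate 2 cell had 17 UMIs of Neurod1, 18 of Insm1 and 3 of the cell cycle gene Mki67, and none of Nefl or Prph. The E14.5 replicate 1 cell had 137 UMIs of the glial gene Fabp7, 20 of Foxd3 and 2 of Nefl. The E14.5 replicate 2 cell had only 1887 UMIs. They met the rule and are counted among the neurons below. Just outside the rule, 8, 16, 10 and 10 cells with the same other markers had exactly 1 UMI of Nhlh1, so the edge between Nhlh1-negative and Nhlh1-positive cells is narrow. Median depths were 11706, 20851, 19625.5 and 35180 UMIs in the Nhlh1-negative cells and 21092, 20635, 19176 and 19236 in the Nhlh1-positive ones. The Nhlh1-negative cells were thus the shallower class in E12.5 replicate 1 and the deeper one in E14.5 replicate 2. Another 4, 7, 17 and 9 cells failed the rule only in having a UMI of Epcam. A lack of Gata3 alone kept out 6, 4, 5 and 36 cells, and a lack of Isl1 alone 1, 1, 7 and 5. In E14.5 replicate 2 the 36 cells without Gata3 thus outnumbered the 19 that were chosen. These values describe the choice and test nothing.

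The identity as ganglion neurons was checked on genes that the rule did not use. Prph, which encodes the intermediate filament peripherin of peripheral neurons, had a UMI in 3 of 4, 11 of 12, 31 of 44 and 11 of 19 cells. In Epcam-positive cells without Stmn2, which should lack it, the counts were 0 of 213, 1 of 270, 10 of 425 and 25 of 1122, at median depths of 20896, 20585.5, 19397 and 17667 UMIs against 11706, 20851, 19625.5 and 35180 in the neurons. Prph did not set these cells apart from the other Stmn2-positive neurons. It read 176, 221, 117 and 58.3 CPM in the Nhlh1-negative neurons and 62.8, 68.9, 459 and 642 CPM in the others (log2 difference -1.13, adjusted p = 0.27 in edgeR's quasi-likelihood test). Hand2, a factor of sympathetic neurons, had no UMI in any library. Atoh1, the defining hair cell factor, was also at 0, but the 10 hair cell markers summed to 163, 382, 1747 and 1511 CPM. Of those sums Pvalb gave 62.9, 253, 1644 and 1430 CPM and Cib2, a calcium-binding protein gene, 50.3, 92.4, 65.2 and 39.3 CPM, and Myo6, a myosin gene, gave 37.7, 32.1, 30.1 and 39.3 CPM. The same list summed to 326, 274, 430 and 578 CPM in the Nhlh1-positive ganglion neurons. A list of 7 branchiomotor markers summed to 0, 0, 0 and 1.36 CPM, and 9 markers of sympathetic or visceral neurons to 12.6, 4.02, 0.836 and 2.71 CPM. Epithelial markers were as low, at 0, 4.02, 9.20 and 13.6 CPM for 11 genes including Epcam. The rule itself required 0 UMIs of Epcam and so selected against epithelial cells, and this last sum is no separate check of identity.

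Other lists were also low or uneven: 12 somatosensory markers summed to 12.6, 72.3, 10.0 and 14.9 CPM, and 9 mesenchymal ones to 12.6, 16.1, 43.5 and 52.9 CPM.

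Glial and macrophage transcripts were present in part of the E14.5 cells. The 9 glial markers summed to 0 and 4.02 CPM at E12.5 and to 1025 and 926 CPM at E14.5. In the Nhlh1-positive neurons of the same E14.5 libraries they summed to 489 and 290.3 CPM. Of the 79 Nhlh1-negative cells, 11 had UMIs of at least 3 of 5 glial genes, Sox10, Foxd3, Fabp7 and Ednrb among them, 6 and 5 in the E14.5 libraries, and these 11 held 96.0% of all Fabp7 UMIs. This definition of the glial-gene cells was made after the data were seen. Their median was 48954 UMIs, against 20431.5 in the other 68 cells. In E14.5 replicate 1, 1 more cell carried the macrophage genes C1qa (78 UMIs) and Tyrobp, and the 8 macrophage markers summed to 0, 4.02, 253 and 4.07 CPM. Scrublet, a doublet caller, marked 1 of the 79 cells. It marked 2, 2, 4 and 2 cells of the whole libraries, far under the expected rate of 6% it was given, so doublets may remain.

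**Figure D1:**
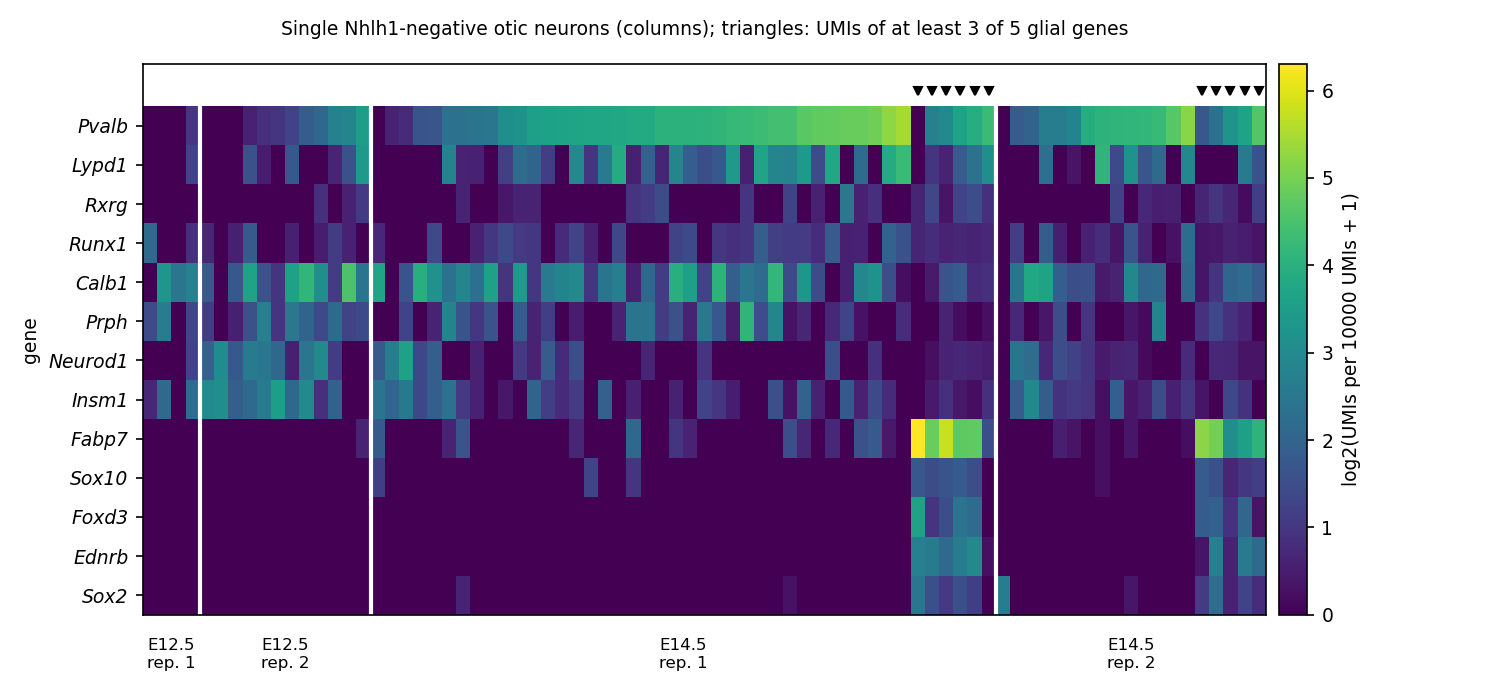
Each column is 1 of the 79 cells that met the rule, grouped by library, and each row a gene; colour gives log2(UMIs per 10000 UMIs of the cell + 1). Triangles mark the 11 cells with UMIs of at least 3 of 5 glial genes, all in the E14.5 libraries, which hold nearly all of the Fabp7, Foxd3 and Ednrb signal, while Pvalb and Calb1 run across most columns.

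Nhlh1-negative cells made up a larger part of the ganglion neurons at E14.5. Among cells with Gata3, Isl1 and Stmn2 and without Epcam they were 4.71% (4 of 85, exact 95% interval 1.30% to 11.6%) and 10.9% (12 of 110, 5.77% to 18.3%) at E12.5. At E14.5 they were 41.5% (44 of 106, 32.0% to 51.5%) and 30.6% (19 of 62, 19.6% to 43.7%). Both E14.5 shares lay above both E12.5 shares. With every cell thinned to 8000 UMIs the shares were 14.3%, 24.5%, 53% and 42.1%, in the same order of ages. The thinned intervals of E12.5 replicate 2 (16.4% to 34.2%) and E14.5 replicate 2 (29.1% to 55.9%) overlapped. The intervals cover counting error only, and no test is given because the rule itself made these shares. Of all kept cells the neurons were 0.617%, 1.75%, 2.80% and 0.623%, and on that base the ages overlapped.

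**Figure D2:**
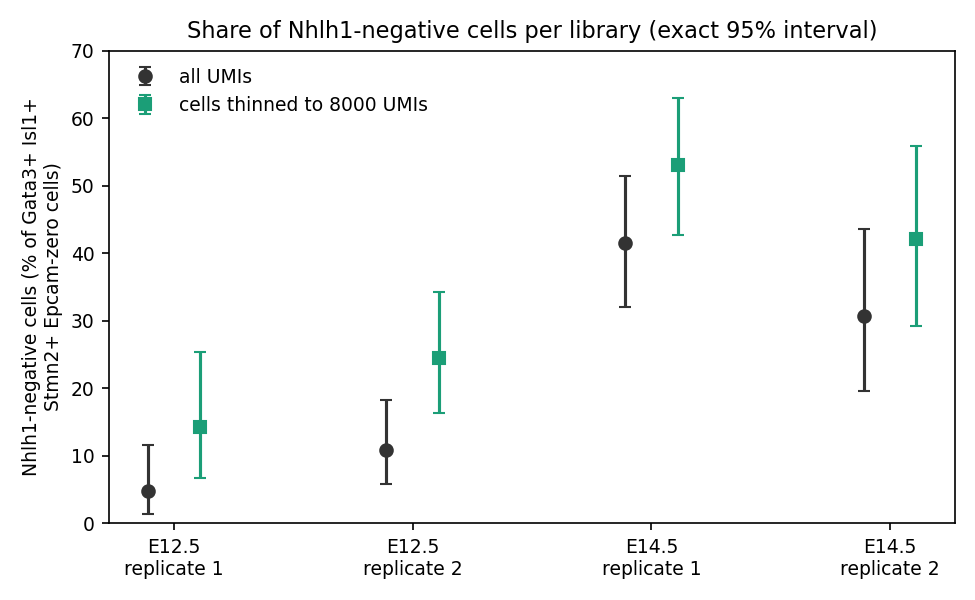
Percent of Gata3-, Isl1- and Stmn2-positive, Epcam-zero cells that had no Nhlh1 UMI, per library, with exact 95% intervals; circles use all UMIs and squares cells thinned to 8000 UMIs. The E12.5 circles lie at 4.71% and 10.9% and the E14.5 circles at 41.5% and 30.6%.

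Set against the Nhlh1-positive ganglion neurons (81, 98, 62 and 43 cells), the Nhlh1-negative neurons had higher levels of Pvalb, Lypd1, Runx1, neurofilament genes and several ion channel genes, and lower levels of Neurod1, Nhlh2, Insm1, Eya2 and 5 of 9 cell cycle inhibitors. Of 8649 genes tested, 875 (10.1%) passed in edgeR's quasi-likelihood test with the library as a term and a Benjamini-Hochberg adjusted p under 0.05, 398 higher (4.6%) and 477 lower (5.52%). All 4 libraries had the same direction for 727 of the 875 and for 25.8% of all genes tested. The count was 296 without E14.5 replicate 1 and 505 without E14.5 replicate 2, and 271 of the 875 genes passed with the same sign whichever library was left out. The division was made on Nhlh1 itself, so genes whose transcripts vary with Nhlh1 from cell to cell differ by construction, and the 5 genes of the rule were not tested.

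Lypd1, a membrane-anchored relative of snake toxins that acts on nicotinic receptors (chr1:125867622-125913101, minus strand, GRCm38), had the largest upward difference among the genes ranked. Its level was 88.0, 129, 484 and 332 CPM in Nhlh1-negative neurons and 16.3, 15.2, 31.5 and 9.86 CPM in Nhlh1-positive ones. Every Nhlh1-negative value lay above every Nhlh1-positive value (log2 difference 3.72, SE 0.24, adjusted p = 3.13e-10). Pvalb, the gene of the calcium buffer parvalbumin (chr15:78191114-78206400, minus strand), stood at 62.9, 253, 1644 and 1430 CPM against 34.2, 34.4, 160 and 210 CPM. Within each library the Nhlh1-negative cells were the higher (log2 difference 2.82, SE 0.18, adjusted p = 3.13e-10), although the first E12.5 value was below both E14.5 values of the Nhlh1-positive cells. The calls for Lypd1 and Pvalb held with any 1 library left out. Without the cells that had a UMI of a glial or macrophage marker, an alternative chosen once the values were known, 640 of 7031 genes passed, 296 higher and 344 lower, with Lypd1 at 3.67 and Pvalb at 3.21.

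The other genes among the 10 largest upward differences were Cntn5 (a contactin, log2 difference 3.31), Lrfn5 (a synaptic adhesion molecule, 3.14), Pcdh9 (a protocadherin, 2.78), Spock3 (2.77), Tbc1d8 (2.71), Clec18a (2.44), C1qtnf4 (2.21) and Susd4 (2.14), each higher in 4 of 4 libraries. Pcdh9 was level across the ages, at 75.5, 68.3, 96.2 and 106 CPM against 16.3, 17.4, 11.1 and 6.27 CPM. Spock3 was not: it read 12.6 and 24.1 CPM at E12.5 and 193 and 235 CPM at E14.5.

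The neurogenic factors differed in the other direction. Neurod1 (chr2:79452521-79456751, minus strand), which newborn otic neurons need to survive and migrate, was at 88.0, 337, 61.1 and 62.4 CPM in Nhlh1-negative neurons and at 924, 829, 1043 and 1059 CPM in Nhlh1-positive ones. The 2 classes did not overlap (log2 difference -3.25, SE 0.30, adjusted p = 6.12e-08). Nhlh2, the close relative of Nhlh1, was at 138, 149, 90.3 and 67.8 CPM against 321, 275, 242 and 219 CPM, again without overlap (log2 -1.41, SE 0.15, adjusted p = 6.87e-07). Eya2, a transcriptional coactivator of placodes, differed by -3.24 and Insm1, a zinc finger factor of newborn neurons, by -1.88 on the log2 scale. Of 22 lineage factors tested, 7 were higher and 11 lower. The higher ones included Runx1, Six2, Sox4, Casz1, Onecut2 and Sox2, of which Sox2 rested on the glial-gene cells, where 94.9% of its E14.5 UMIs lay. With the cells with a glial or macrophage UMI removed, 3 of 20 were higher (Runx1, Six2 and Sox4) and 11 lower. Casz1 then stood at 0.82 (adjusted p = 0.14) and Onecut2 at 0.60 (adjusted p = 0.060), and Sox2 had too few UMIs for a test.

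The largest differences downward were held by Actc1, Mfap4, Ppp1r17, Nrp2, Ccdc88b, Mfng, Fam212b, Neurod6, Klc3 and Ppp1r14a, each lower in 4 of 4 libraries. Neurod6, a cortical marker, read 0, 0, 1.67 and 14.9 CPM against 21.3, 17.4, 85.2 and 69.9 CPM. The 3 cortical markers tested (Neurod6, Neurod2 and Bhlhe22) and the 3 olfactory ones (Gap43, Ebf2 and Gng8) were lower. Of the olfactory ones, only Gap43 passed without the cells with a glial or macrophage UMI. Whether the Nhlh1-positive class holds neurons of other types was not tested. Actc1, a muscle actin gene, had 2 UMIs in all Nhlh1-negative neurons and 710 in the Nhlh1-positive ones, a CPM ratio of 0.00849 (counting interval 0.00103 to 0.0308). Ppp1r17, a phosphatase inhibitor gene, stood at 12.6, 76.3, 10.9 and 10.8 CPM against 562, 424, 480 and 639 CPM. Mfng, which encodes a glycosyltransferase that modifies Notch, was at 25.2, 32.1, 3.35 and 5.42 CPM against 149, 114, 141 and 138 CPM. Nrp2, a semaphorin coreceptor, had 7 UMIs against 523.

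**Figure D3:**
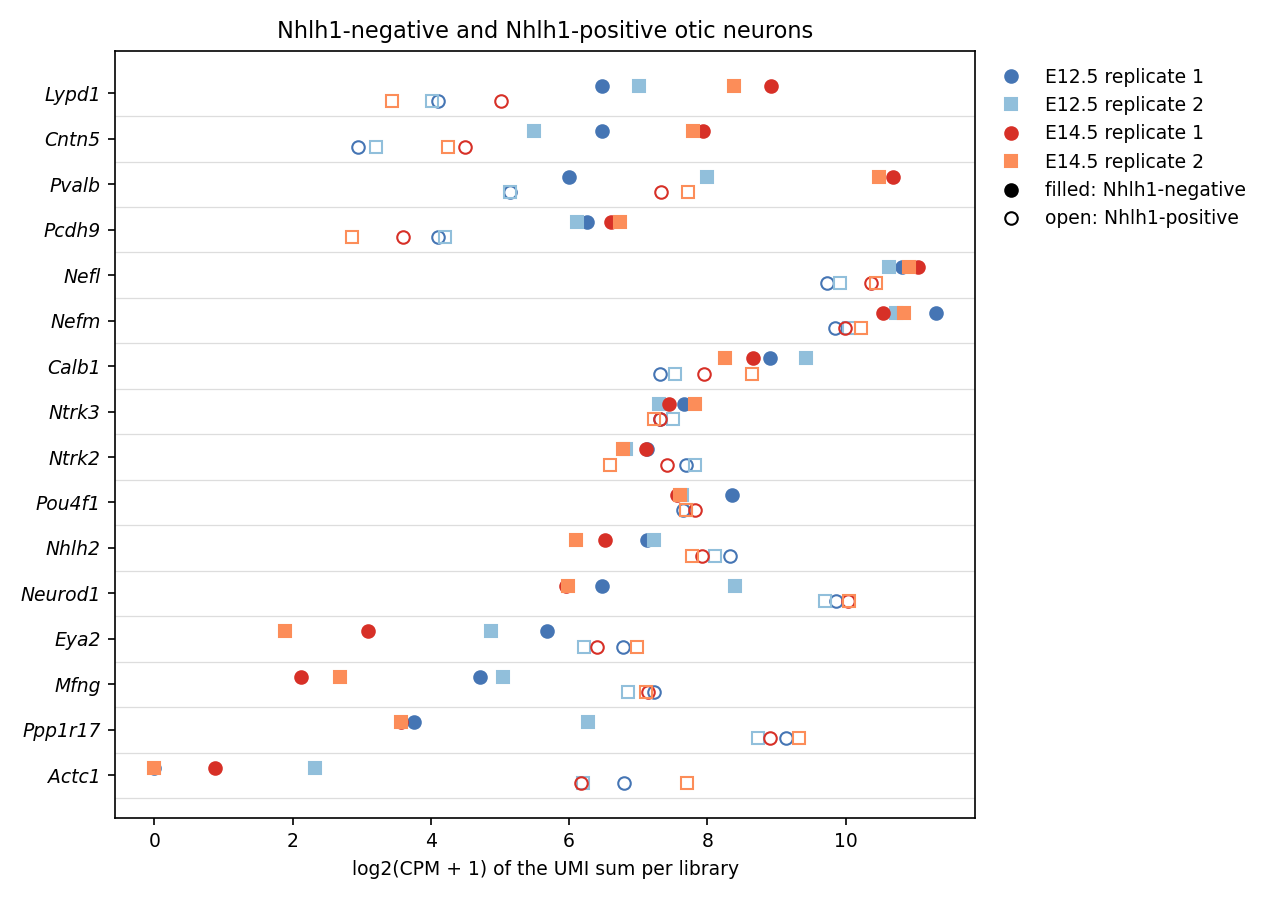
log2(CPM + 1) of 16 genes in the UMI sum of each library; filled symbols are Nhlh1-negative and open symbols Nhlh1-positive neurons, blue E12.5 and red E14.5. Lypd1, Cntn5 and Pcdh9 separate the filled from the open symbols to the right and Neurod1, Mfng, Ppp1r17 and Actc1 to the left, while Ntrk3 and Pou4f1 overlap.

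Genes that later distinguish spiral ganglion subtypes were mostly on the higher side. Of 12 tested, 8 were higher (among them Lypd1, Runx1, Rxrg, Epha4, Prph, Ntng1 and Calb1) and 1 lower (Lmo1), with a median log2 difference of 0.79, against -0.0014 over all genes tested. Runx1, a transcription factor of sensory neuron subtypes, was at 126, 48.2, 97.9 and 82.7 CPM against 15.1, 25.7, 20.4 and 17.9 CPM, with no overlap (log2 1.98, SE 0.26, adjusted p = 6.53e-06). Rxrg, a retinoid receptor, had 101 UMIs in 79 cells against 22 UMIs in 284 cells (log2 2.99). Without the cells with a glial or macrophage UMI, Rxrg had too few UMIs for a test, so its call could not be checked there. Prph and Calb1 were less firm. Prph read 176, 221, 117 and 58.3 CPM against 84.7, 85.2, 44.4 and 68.1 CPM and was the lower one in E14.5 replicate 2. Its log2 difference of 0.88 (adjusted p = 0.011) lost the call without E12.5 replicate 2 (0.68, adjusted p = 0.077) or E14.5 replicate 1 (0.66, adjusted p = 0.31). Calb1, which encodes the calcium buffer calbindin, read 478, 687, 402 and 305 CPM against 158, 184, 246 and 398 CPM and was also the lower one in E14.5 replicate 2. Its difference of 0.79 (adjusted p = 0.028) passed only in the fit without E14.5 replicate 2 (1.29) when libraries were left out in turn; without E12.5 replicate 2 it was 0.36 (adjusted p = 0.31). Without the cells with a glial or macrophage UMI, 6 of 10 subtype genes were higher and 1 lower, with Prph at 1.52 (adjusted p = 7.02e-06), Calb1 at 1.005 (adjusted p = 0.000998) and Ntng1 at 0.40 (adjusted p = 0.11).

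Neurofilament genes and tubulin genes parted. Of 34 genes of neurofilaments, microtubules and growth cones, 9 were higher, among them Nefl, Nefm, Ina, Mapt and Kif5c, and 9 lower, among them Tubb3, Tuba1a, Tubb2b, Stmn1, Gap43 and Basp1. Nefl, the light neurofilament, was at 1798, 1587, 2110 and 1928 CPM against 847, 965, 1323 and 1385 CPM, and did not overlap (log2 0.65, SE 0.10, adjusted p = 6.92e-05). Nefm, the medium one, differed by 0.74 (SE 0.12, adjusted p = 7.85e-05). Gap43, a growth cone protein, had a log2 difference of -0.55 (SE 0.14, adjusted p = 0.013), but it was lower in 3 of 4 libraries only, and without E14.5 replicate 1 or 2 the adjusted p was 0.43 or 0.12. Once the cells with a glial or macrophage UMI were removed, 10 of the 34 were higher and 5 lower, Tubb3, Tuba1a and Gap43 still among them, while Tubb2b (-0.26, adjusted p = 0.092) and Stmn1 (-0.18, adjusted p = 0.22) no longer passed.

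Among 20 ion channel genes, 6 were higher and 2 lower. The higher ones included Cacng2, Cacna1h, Asic1, Kcna1 and Kcnh2. Cacng2, which encodes a transmembrane protein that regulates AMPA receptors, was at 75.5, 112, 77.8 and 88.1 CPM against 28.6, 33.9, 36.4 and 45.7 CPM, with no overlap (log2 1.16, SE 0.20, adjusted p = 0.000242). The lower ones were the ATP-gated channel gene P2rx3 (log2 -0.75) and Kcnip4. Of 15 ion channel genes tested without the cells with a glial or macrophage UMI, 4 were higher, Cacng2, Cacna1h and Asic1 among them, and 0 lower in edgeR, with P2rx3 at -0.41 (adjusted p = 0.16). Of 30 genes of synapses and transmitter release, 5 were higher and 6 lower, with Sncg, a synuclein gene, among the higher ones at 3219, 2864, 3682 and 3297 CPM against 1119, 1444, 1562 and 1672 CPM.

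The differences in the receptors Ntrk2 and Ntrk3 did not pass over all cells. Ntrk3, the receptor of neurotrophin 3, read 201, 157, 173 and 225 CPM against 158, 181, 159 and 149 CPM. Its log2 difference of 0.16 (SE 0.14, adjusted p = 0.63) was close to the size of its SE. Ntrk2, the receptor of brain-derived neurotrophic factor, differed by -0.42 (SE 0.17, adjusted p = 0.13), but it passed at -0.58 (adjusted p = 0.026) without the cells with a glial or macrophage UMI. The difference was -0.09 (SE 0.14, adjusted p = 0.81) for Pou4f1, a sensory neuron factor. In all, 2 of 14 genes of neurotrophin and glial ligand signalling were higher (Ngfr and Bex1) and 1 lower.

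Of 9 cell cycle inhibitors, 5 were lower: Btg2, Gadd45a, Cdkn1a, Cdkn1c and Cdkn1b. Cdkn1a, which encodes an inhibitor of cyclin-dependent kinases, stood at 37.7, 52.2, 31.0 and 28.5 CPM against 116, 93.1, 90.7 and 100.3 CPM, with no overlap (log2 -1.55, SE 0.21, adjusted p = 1.59e-05). Of 19 Notch and proneural genes, 4 were higher (Id3, Id4, Id2 and Dner) and 6 lower (Mfap4, Btg2, Mfng, Gadd45g, Hes6 and Dll3). Of 30 axon guidance genes, 7 were higher, Sema3e and Epha3 among them, and 6 lower, Nrp2 and Epha5 among them. Of 24 tested without the cells with a glial or macrophage UMI, 2 were higher (Epha3 and Epha4) and 5 lower. Nrp1 (1.47, adjusted p = 0.096) and Unc5b (0.69, adjusted p = 0.32) did not pass there, and Sema3e had too few UMIs for a test. Among the cell cycle inhibitors, Cdkn1b did not pass there (-0.63, adjusted p = 0.18). The reporter transcript Egfp was lower, at 12.6, 32.1, 32.6 and 19.0 CPM against 97.6, 75.7, 63.0 and 44.8 CPM (log2 -1.24, SE 0.23, adjusted p = 0.00051), and of the Nhlh1-negative neurons' E14.5 UMIs of Egfp, 83.0% lay in the glial-gene cells. The Egfp difference was -2.19 (adjusted p = 0.000138) without the cells with a glial or macrophage UMI.

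**Figure D4:**
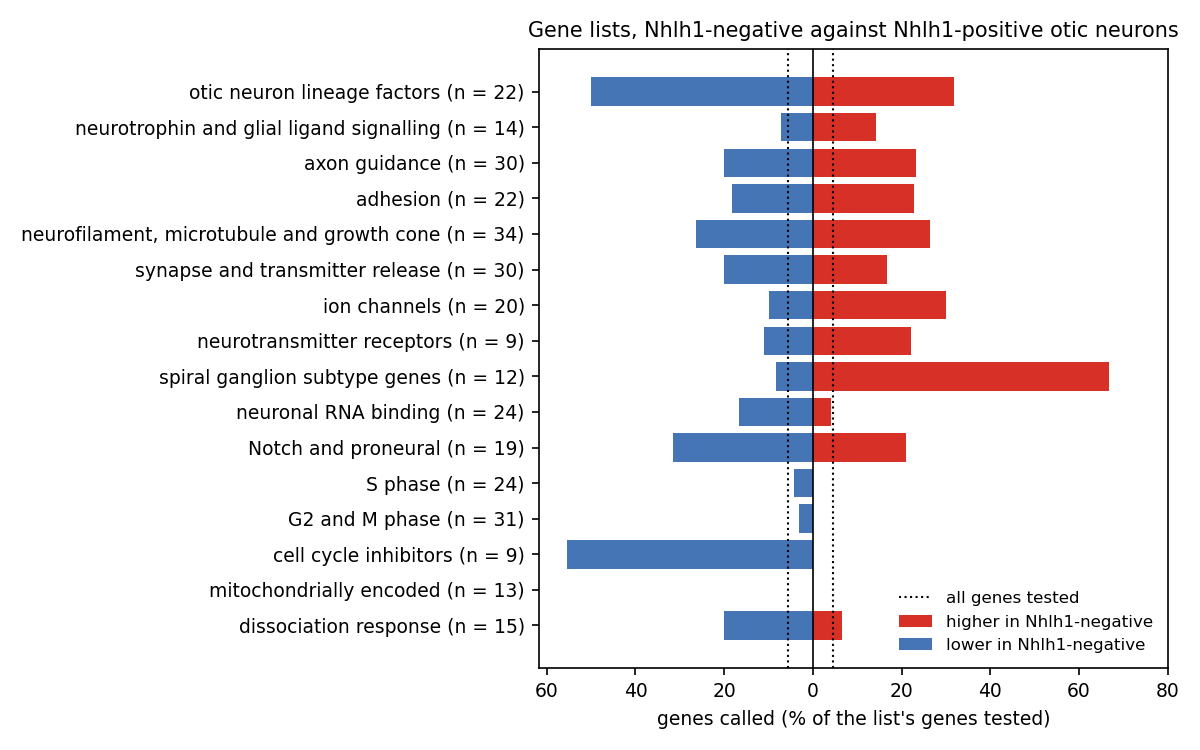
Percent of the tested genes of each list with at least 9 genes tested that were called higher (red, to the right) or lower (blue, to the left) in Nhlh1-negative than in Nhlh1-positive neurons; dotted lines give the 4.6% and 5.52% of all genes tested. Among the 16 lists drawn, the subtype genes reach farthest to the right with 8 of 12 and the cell cycle inhibitors farthest to the left with 5 of 9.

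Between the ages, the Nhlh1-negative neurons themselves gained Pvalb, Maf, Lypd1 and the cadherin gene Cdh4, and lost Ccnd1, Gadd45g, Insm1, Ppp1r14a and Epha5. The test compared 2 libraries with 2, and E12.5 was represented by 16 cells. Of 6625 genes tested, 190 (2.87%) passed, 94 up (1.42%) and 96 down (1.45%). The ages did not overlap in each of the 190, against 49.2% of all genes tested. The count ranged from 74 without E14.5 replicate 2 and 114 without E14.5 replicate 1 to 451 without E12.5 replicate 1, and 57 of the 190 genes passed in the same direction in every such fit. DESeq2 called 79. In bulk sums like these, fewer cells with a transcript and less of it per cell cannot be told apart.

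Pvalb rose by 2.90 on the log2 scale from the levels given above (SE 0.23, adjusted p = 5.38e-07), and both E14.5 libraries lay far above both E12.5 ones. A UMI of it was seen in 1 of 4, 9 of 12, 42 of 44 and 18 of 19 cells, against 7 of 213, 0 of 270, 7 of 425 and 33 of 1122 epithelial cells. Lypd1 rose by 1.78 (SE 0.28, adjusted p = 0.00097). Maf, a basic leucine zipper factor, had 0 UMIs at E12.5 and 109 and 184 CPM at E14.5, at least 15.1-fold higher over a floor of 3 UMIs for the E12.5 sums together. Cdh4 had 2 and 203 UMIs, a ratio of 17.2 (counting interval 4.71 to 143).

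The 12 largest rises fell into genes seen across the neurons and genes seen almost only in the glial-gene cells. Of the E14.5 UMIs, those 11 cells held 100% for Ednrb and Foxd3, 97.8% for Hmga2, 97.2% for Npy, 96.9% for Npr3, 96.6% for Gata2, 94.2% for Sparc and 91.4% for Zfp36l1. They held 46.3% for Gpr37, 31.4% for Hmcn1, 22.9% for Maf and 14.6% for Camk4. These 12 genes had no UMI in the 16 E12.5 cells. The 11 cells were 17.5% of the 63 E14.5 neurons. They were also deeper, with medians of 50699 and 39633 UMIs in E14.5 replicates 1 and 2 against 19397.5 and 31693 in the rest. A gene at an even level would therefore have more than 17.5% of its UMIs in them. All 5 glial markers that could be tested passed as rises.

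With every cell removed that had a UMI of a glial or macrophage marker (Sox10, Foxd3, Tyrobp, Fcer1g and C1qa among them), leaving 4, 12, 30 and 10 neurons, 116 of 4193 genes passed, 46 up and 70 down. Pvalb (log2 2.79), Maf, Lypd1 (1.63) and Cdh4 (3.59) passed there too. Fos, an early response gene, went from 1.43 (adjusted p = 0.00044) to 0.13 (adjusted p = 0.87) and Id3, an inhibitor of helix-loop-helix factors, from 1.67 to 1.03 (adjusted p = 0.11). Of the 12 largest rises, only Maf and Hmcn1 had enough UMIs for a test there, and both passed. Of the genes followed one by one that could still be tested, 55 kept their side of the threshold there and 11 lost the call. Besides Fos and Id3, those were Calb1, Gap43, Tubb2b, Stmn1, Mfap4 (-1.84, adjusted p = 0.088), Ankrd16 (-1.75, adjusted p = 0.081), Pcdh17, Btg1 and mt-Atp6. Cplx1 gained a call, and the sign turned for Tuba1a.

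The falls included Ccnd1, Gadd45g and Insm1. Ccnd1, the gene of cyclin D1, went from 604 and 554 CPM to 115 and 71.8 CPM, far outside the spread within an age (log2 -2.59, SE 0.22, adjusted p = 1.34e-06). Gadd45g, a growth arrest gene, went from 239 and 233 CPM to 48.5 and 47.4 CPM (log2 -2.31, SE 0.27, adjusted p = 6.22e-05). Insm1 went from 264 and 422 CPM to 88.7 and 106 CPM (log2 -1.98, SE 0.24, adjusted p = 7.23e-05). These 3 calls held whichever library was left out.

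Ppp1r14a, which encodes an inhibitor of myosin phosphatase, fell by 3.48 (SE 0.38), Sh2d3c by 3.40 and the ephrin receptor gene Epha5 by 1.33 on the log2 scale. Also among the 12 largest falls were Mfap4, Neurod1, Btg2, Ankrd16 and Ddit3. Neurod1 fell by 2.10 (adjusted p = 0.0013), but its E12.5 values of 88.0 and 337 CPM were far apart, and without E12.5 replicate 2 its log2 change was -0.47 (adjusted p = 0.70).

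Of the 34 cytoskeletal and growth cone genes, 0 rose and 6 fell: Stmn4, Tubb2b, Stmn1, Tuba1a, Tubb3 and Gap43. Stmn4 dropped from 1195 and 1117 CPM to 542 and 535 CPM (log2 -1.11, SE 0.12, adjusted p = 3.97e-05), and the others changed by less. Without the cells with a glial or macrophage UMI, Stmn4 was the only one of the 6 that passed (-0.89, adjusted p = 0.000685), and the tubulin gene Tubb2a was called higher (0.71, adjusted p = 0.019). Tubb2b went from -0.55 to -0.15 (adjusted p = 0.63), Stmn1 from -0.50 to -0.32 (adjusted p = 0.17) and Gap43 from -0.53 to -0.33 (adjusted p = 0.31). Tubb3 went from -0.46 to -0.02 (adjusted p = 0.97) and Tuba1a from -0.43 to 0.05 (adjusted p = 0.87).

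Over all cells, no call was made by edgeR, or by DESeq2, among 16 ion channels, 28 synaptic genes, 7 transmitter receptors, 13 neurotrophin pathway genes, 21 neuronal RNA-binding genes, 14 S phase genes and 23 G2 and M phase genes, 122 in all, of which 27 had an unadjusted p under 0.05 in edgeR. Of all 6625 genes tested, 1051 had an unadjusted p under 0.05 in edgeR, and 2.87% were called. In these lists, Cplx1 and Sv2a, genes of transmitter release, had log2 changes of 1.81 (adjusted p = 0.068) and 1.65 (adjusted p = 0.072). Without the cells with a glial or macrophage UMI, edgeR called 2 genes of these lists, Cplx1 as higher (2.03, adjusted p = 0.043) and Hmgb2, a chromatin protein gene of the G2 and M phase list, as lower (-2.15, adjusted p = 0.0015; over all cells 0.08).

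Among subtype genes, Calb1 went against Pvalb. It read 478 and 687 CPM at E12.5 and 402 and 305 CPM at E14.5 (log2 -0.82, SE 0.19, adjusted p = 0.019). That fall did not hold without E12.5 replicate 2 (adjusted p = 0.48) or E14.5 replicate 2 (adjusted p = 0.59), nor without the cells with a glial or macrophage UMI (-0.34, adjusted p = 0.39). Prph read 176 and 221 CPM and then 117 and 58.3 CPM, and its log2 change of -1.21 (SE 0.33, adjusted p = 0.055) missed the threshold. It passed without E12.5 replicate 1 (-1.31, adjusted p = 0.000196) or E14.5 replicate 1 (-1.79, adjusted p = 0.022), and it was -0.49 (adjusted p = 0.46) without the cells with a glial or macrophage UMI. Ntrk2 (138, 112, 138 and 108 CPM), Ntrk3 and Slc17a6, the vesicular glutamate transporter (101, 96.4, 87.0 and 80.0 CPM), had log2 changes of 0.03, 0.19 and -0.24 and did not pass.

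**Figure D5:**
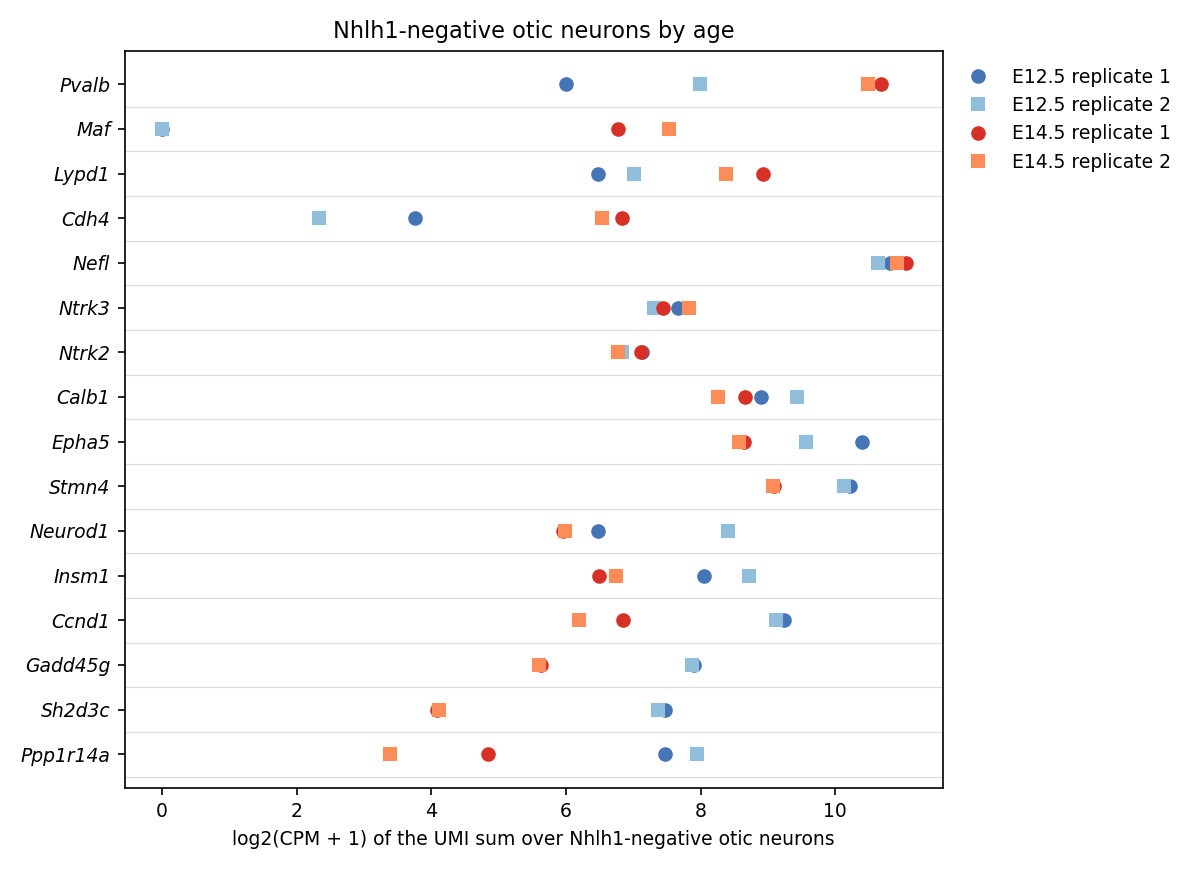
log2(CPM + 1) of 16 genes in the summed Nhlh1-negative neurons of each library, blue for E12.5 and red for E14.5, circles for replicate 1 and squares for replicate 2. Pvalb, Maf, Lypd1 and Cdh4 lie to the right at E14.5 and Ccnd1, Gadd45g, Sh2d3c and Ppp1r14a to the left, while Ntrk2 overlaps.

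The gap between the Nhlh1-negative and Nhlh1-positive neurons was not the same at both ages for 48 of 9639 genes (0.498%), 16 with a larger E14.5 minus E12.5 change in the Nhlh1-negative neurons (0.166%) and 32 with a smaller one (0.332%). This interaction test was added after the data were seen. Without E14.5 replicate 2 it called 6, without E14.5 replicate 1 it called 21, without E12.5 replicate 1 it called 92, and DESeq2 called 10. Spp1, the secreted phosphoprotein osteopontin, was at 717, 791, 820 and 1308 CPM in Nhlh1-negative neurons and at 80.2, 87.9, 423 and 911 CPM in Nhlh1-positive ones. It was thus already high in the Nhlh1-negative neurons at E12.5, and the 2 classes came closer at E14.5 (interaction log2 -2.44, SE 0.21, adjusted p = 1.71e-14). Calb1 also had a negative interaction, with 158, 184, 246 and 398 CPM in Nhlh1-positive neurons (interaction log2 -1.61, SE 0.25, adjusted p = 1.22e-05). Unlike Spp1, it read lower at E14.5 in the Nhlh1-negative neurons (478, 687, 402 and 305 CPM), and the order of the classes was reversed in E14.5 replicate 2. For Ccnd1 the Nhlh1-positive neurons read 144, 107, 75.3 and 71.7 CPM, well below the Nhlh1-negative ones at E12.5 and nearly level with them in E14.5 replicate 2 (interaction log2 -1.88, SE 0.29). Neurod1, Insm1 and Ppp1r14a parted further at E14.5, with interactions of -2.36, -1.77 and -3.50. With libraries left out in turn, Spp1 and Ppp1r14a passed in 4 of 4 fits, Ccnd1 and Neurod1 in 3, and Calb1 and Insm1 in 2.

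Single neurons varied within a library. Over the 79 cells a UMI of Pvalb was found in 70, of Calb1 in 72, of Prph in 56, of Runx1 in 56, of Lypd1 in 51, of Neurod1 in 46 and of Rxrg in 31. Of the 9 cells without Pvalb, 4 had a UMI of Neurod1. The highest counts in a cell were 321 UMIs of Pvalb, 120 of Lypd1 and 36 of Prph, all in E14.5 replicate 1.

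Against all other cells with at least 3 Stmn2 UMIs (275, 220, 545 and 842 cells), 1551 of 10990 genes passed (14.1%), 623 higher (5.67%) and 928 lower (8.44%) in the Nhlh1-negative neurons. All 4 libraries had the same direction for 1149 of the called genes and for 28.6% of all genes tested. The count was 690 without E14.5 replicate 1 and 720 without E14.5 replicate 2. The other neurons were a mixed group: at E14.5 they held 905 and 753 CPM of the olfactory gene Gng13. After removal of cells with markers of other types from that group, 572 genes passed. The change with age differed between the Nhlh1-negative and these other neurons for 392 of 12477 genes (3.14%), 250 with a larger E14.5 minus E12.5 change in the Nhlh1-negative neurons (2.0%) and 142 with a smaller one (1.14%), but for 24 without E12.5 replicate 2 and 45 with the cleaned group.

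Spp1 was the largest difference upward, with 32.7, 53.8, 55.6 and 71.5 CPM in the other neurons (log2 3.99, SE 0.14, adjusted p = 1.24e-11). It was followed by Pvalb (3.79), Lypd1 (3.79), Cntn5 (3.61), Nmrk1 (3.50), Calb1 (2.94), C1ql3 (2.76), Ostf1 (2.74), Esrrg (2.70) and Mdga1 (2.58). Nefm (2.25), Ngfr (1.99), Pou4f1 (1.91), Nefl (1.91) and Ntrk3 (1.77) were higher in 4 of 4 libraries. Ntrk2 passed at 1.28, but with the cleaned comparison group it stood at -0.11. Of the 10 largest differences downward, Cldn9, Pcp4l1 and Lhx9 had no UMI in the Nhlh1-negative neurons, and Crabp1, Krt18, Rd3, Lhx2, Uncx, Calb2 and Cldn7 had 1 to 8. The other neurons included Stmn2-positive cells with a UMI of Epcam, which the rule kept out of the Nhlh1-negative neurons. The differences in epithelial genes such as Krt18, Cldn7 and Cldn9 therefore cannot be read apart from the rule. Neurog1, the factor that starts the otic neural lineage, was also at 0 UMIs in them, at least 37.6-fold lower than in the other neurons against a floor of 3 UMIs over the group. In the other neurons it read 3.95 and 5.62 CPM at E12.5 and 56.1 and 65.3 CPM at E14.5. The E12.5 values lay under the 37.7 and 12.1 CPM of 3 UMIs in the Nhlh1-negative sums. That fold thus rests on the mixed E14.5 group, and a difference at E12.5 could not be measured.

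Of the cell cycle genes, 9 of 39 for S phase and 16 of 51 for G2 and M phase, Cdk1 and Top2a among them, were lower in the Nhlh1-negative neurons than in the mixed group. Of all genes tested against that group, 8.44% were lower. Against the Nhlh1-positive neurons of the ganglion, 1 of 24 (Brip1) and 1 of 31 (Tubb4b) were lower, not above the 5.52% of all genes tested there. Against the mixed group, ion channels were higher for 10 of 34 genes and lower for 1, and subtype genes higher for 10 of 19 and lower for 3. Over all genes tested, 5.67% were higher and 8.44% lower.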

How the data were processed

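The authors deposited raw UMI counts per gene and barcode for each library. Per the submitters' processing notes, Cell Ranger 3.0.0 and mm10 were used; no annotation or cell calling setting was stated. GENCODE vM21 (GRCm38) held 98.7% of the gene identifiers and gave positions.

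Cells needed 1000 genes and a mitochondrial UMI share below 10%, which kept 648, 684, 1569 and 3049 of 694, 737, 1705 and 3298 barcodes. UMI sums per library and class were tested by edgeR 4.0.16 (R 4.3.3) with its quasi-likelihood F test, TMM factors, filterByExpr and Benjamini-Hochberg adjustment over all genes tested, threshold 0.05. Age was the term for the age comparison, and the library was a block for class comparisons. The SE is the log2 change over the root of F. The plan asked for at least 20 cells per library and class; 3 libraries had fewer of these neurons, and the minimum was dropped after cell numbers were seen. The cells, gene lists and markers were chosen with earlier results of these data known.

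Named genes were the 12 largest changes per direction by age and the 10 largest against each other class, among called genes whose mean log2 CPM reached 5 and whose ages did not overlap or whose direction held in 4 libraries, up to 6 per direction for interactions, a fixed set of otic genes, and up to 4 per list. Numbered gene models and ribosomal, histone, hemoglobin, mitochondrial, sex-linked and reporter genes were not ranked. Other genes, such as Spp1 and Ccnd1 against Nhlh1-positive neurons, were named after their values were seen. On simulated counts, changes of 1 and 2 on the log2 scale were called in 31.2% and 80.6% of cases by age, 72.4% and 99.0% against Nhlh1-positive neurons, and 4.21% and 44.9% for the interaction between these. Alternatives were RLE factors, DESeq2 1.42.0, no low-count filter, each library left out, a 5% mitochondrial limit, thinning to 8000 UMIs, removal of high doublet scores (scrublet, scanpy 1.11.5) and other choices of cells. The E14.5-only fit was also chosen after the data were seen. Some genes are not reported here. Library pairs shared at most 1 barcode.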

Additional observations from a re-analysis of the deposited data

Results flagged for a closer look

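The change with age in the Nhlh1-negative neurons differed from that in the other Stmn2-positive neurons for 392 of 12477 genes (3.14%) by edgeR's interaction test, 250 with a larger and 142 with a smaller E14.5 minus E12.5 change, and 11 of them passed whichever library was left out. The largest interactions on the log2 scale were 14.73 for Maf, 12.25 for Hoxb2, 12.18 for Pid1, 10.00 for Khdrbs2, 5.05 for Nr2f1 and 4.09 for Fabp7, and -7.49 for Cldn3, -5.41 for Atf5, -5.01 for Ebf2, -4.38 for Gng8, -4.26 for Rnf182 and -4.16 for Prph. With libraries left out in turn, Maf, Pid1, Nr2f1, Atf5, Gng8 and Prph passed in 3 of 4 fits, Fabp7 and Ebf2 in 2, Hoxb2 in 1, and Khdrbs2, Cldn3 and Rnf182 in 0. Fitted values for genes without a UMI in the E12.5 neurons depend on the prior count and bound nothing. For each negative value named, the other neurons read higher at E14.5. Atf5 was at 25.2, 40.2, 27.6 and 27.1 CPM in the Nhlh1-negative neurons and at 26.1, 27.9, 967 and 808 CPM in the others. The make-up of the others also differed by age: Nhlh1-positive ganglion neurons were 81 of 275, 98 of 220, 62 of 545 and 43 of 842 cells. Its part in these interactions was not tested.

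Against the Nhlh1-positive neurons 48 genes differed in this way. Among the largest were 4.47 for the topoisomerase gene Top2a, 3.61 for Cdh4, 2.99 for Snhg11, 2.58 for Id1 and 2.57 for Lgals1, and -3.50 for Ppp1r14a, -3.01 for Mfng, -2.89 for Mfap4, -2.83 for Eya2 and -2.68 for Ppp1r17. Of these, Ppp1r14a passed with any 1 library left out, Id1 in 3 of 4 such fits and the others in 1 or 2. All 98 Top2a UMIs of the E14.5 neurons lay in the 11 cells with several glial genes, and Top2a stood at -2.58 without the cells with a glial or macrophage UMI. Those 11 cells, 17.5% of the E14.5 neurons, held 56.6% of the E14.5 UMIs of Lgals1 and 41.2% of those of Id1. Since they were deeper than the rest, a gene at an even level would also exceed 17.5% in them. For Cdh4 and Snhg11 they held 23.6% and 4.98%.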

How the results depend on the processing

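Counts of called genes moved by over 1.5 times under several settings. By age (190), DESeq2 called 79, no low-count filter 293, thinned cells 45, cells without a glial or macrophage UMI 116, cells without a UMI of other types 62, cells with an Egfp UMI 40 and, with the Nhlh1-positive cells added, 2943; leaving out 1 library gave 74 to 451. Against Nhlh1-positive neurons (875), DESeq2 called 487 and thinned cells 383, leaving out 1 library gave 296 to 1012, and the E14.5 libraries alone gave 1120. Against other neurons (1551), the counts were 936 with DESeq2, 2447 unfiltered, 825 thinned, 350 with no replicate block, 572 with the cleaned group, 948 against cells without Gata3 or Isl1, and 690 to 2051 with 1 library left out. The interaction with other neurons (392) gave 158 with DESeq2, 78 thinned, 45 with the cleaned group, 700 against cells without Gata3 or Isl1, 48 against Nhlh1-positive neurons and 24 to 109 with 1 library left out. The interaction with Nhlh1-positive neurons (48) gave 10 with DESeq2, 30 at a 5% mitochondrial limit, 3 thinned, 31 without cells with a glial or macrophage UMI and 6 to 92 with 1 library left out. The cause of these moves was not tested, apart from the smaller numbers of cells, libraries or genes that some settings leave. The replicate block moved the age count to 226, and without the library block the Nhlh1-positive comparison gave 625. Deviations of same-numbered libraries had a correlation of 0.0277, so the numbers do not show a pairing. Shares of Nhlh1-negative cells moved with thinning to 14.3%, 24.5% and 53% in 3 libraries.

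Signs turned, with a call on 1 side, by age for Tuba1a (0.053) without cells with a glial or macrophage UMI, and for Ntrk2 (-0.72), Calb1 (0.66), Nefm (0.28) and Gap43 (0.077) with Nhlh1-positive cells added. Against other neurons Ntrk2 turned to -0.11 with the cleaned group. For the interaction with other neurons, Neurod1 ranged from -1.39 to 0.056 with 1 library left out, the latter without E12.5 replicate 2; Nhlh2 (-1.61), Calb1 (-1.42), Nefl (-0.24) and Nefm (-0.28) turned with the cleaned group; Ntrk3 (-0.086) and Calb1 (-2.60) against cells without Gata3 or Isl1; and Pou4f1 (-0.42), Calb1 (-1.61), Nefl (-0.30) and Nefm (-0.44) against Nhlh1-positive neurons. For the interaction with those, Top2a turned to -2.58 without cells with a glial or macrophage UMI. The causes were not tested. Another 65 of 3094 values recomputed for named genes crossed 0 with no call on either side. The E12.5 sums limit the depth: below 37.7 CPM in replicate 1 a gene may have under 3 UMIs.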
